A study of Mus musculus with 11 samples.

Results

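Radial glia and astrocytes share a set of genes, and 33 of them were followed here through the libraries of a mouse Zeb2 study. The members were chosen by name, as genes known to mark radial glia, neural stem cells or astrocytes, and their Ensembl identifiers were looked up in the deposited count table of 39179 genes. Of the 33, 3 encode intermediate filament proteins (Vim, Nes and Gfap), 11 mark radial glia or stem cells, and 19 are genes of differentiating or mature astrocytes. All 33 were in the table. Counts were high enough for a test in 31 of them, and Thbs4 and Gjb6 were too low.

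The RNA came from GFP-positive cells, sorted by flow cytometry from the ventricular-subventricular zone (V-SVZ) of CD1/Swiss mice at postnatal day 2. The 5 KO libraries carried Gsh2-Cre, a floxed and a null Zeb2 allele (Zeb2fl/ko) and the RCE reporter, which makes GFP where Cre has acted. The 6 Ctrl libraries carried Gsh2-Cre, a floxed and a wild-type Zeb2 allele (Zeb2fl/wt) and the same reporter. Both groups therefore carry Cre, which is driven by the promoter of Gsh2, a gene of ventral telencephalic progenitors, and sorted Ctrl cells would also lose their floxed allele and keep 1 allele of Zeb2. The null allele of the KO mice is present in every cell of the animal. No label says that each library came from its own animal, so the p-values here speak of the spread among libraries, which may in part be technical.

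Radial glia are the stem cells of the developing brain. They span the wall of the ventricle, give rise to neurons and later to glia, and some persist after birth as the astrocyte-like stem cells of the V-SVZ. Vimentin and nestin form the filaments of their long fibres, and GFAP joins these as astrocytes and postnatal stem cells form. Astrocytes then take up glutamate and potassium, couple to one another through gap junctions and supply lipids to neurons. Zeb2 encodes a zinc finger transcription factor that binds the DNA sequence CACCT and its E-box form CACCTG, and it is known in epithelial cells for its part in the transition to a mesenchymal, vimentin-rich state.

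Library totals were 6833981 to 13073505 counts, in which 16836 to 18649 genes were detected. Values below are CPM, counts scaled by the library total, unless a sentence says otherwise. Zeb2 itself had 373, 252, 336, 345 and 202 CPM in the KO libraries, against 152 to 285 CPM in the Ctrl libraries (median 253). The Zeb2 count was thus no lower under the KO label (log2 fold change 0.35 ± 0.165 SE, edgeR adjusted p = 0.294). A count over the whole gene need not show the loss of a floxed exon, so this count does not check the genotype. The exons of Zeb2os overlap Zeb2 on the other strand, at a mean of 1.13 CPM beside 267.5 CPM for Zeb2. KO and Ctrl mean here the libraries with those labels, and every direction rests on them. Counts of 4 Y-linked genes were 0 in all 5 KO libraries and in Ctrl 4 and Ctrl 5, and were between 763 and 2716 in the other 4 Ctrl libraries. Sex and genotype were therefore partly confounded, and results are also given for the 7 libraries without Y-linked counts, 5 KO and 2 Ctrl.

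Across the table, edgeR's quasi-likelihood test called 623 of 14104 genes (4.42%) at the 0.05 threshold on adjusted p. In KO 378 of them (2.68%) were higher and 245 (1.74%) were lower. Among the 31 tested members, Hopx was higher in KO, and Vim, Ednrb and Slc4a4 were lower. The other 27 did not pass. Of the 31 fold changes, 4 were positive and 27 negative, with a median log2 fold change of -0.31, beside -0.02 over all tested genes. Without the libraries that hold Y-linked counts, 14 members were positive and 17 negative, and the median was -0.08, beside 0.01 over all genes. In those 7 libraries 218 of 14897 genes (1.46%) passed, and Vim was the 1 member that did. The low balance of the members as a group thus shrank when the Ctrl libraries with Y-linked counts were left out.

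**Figure D1:**
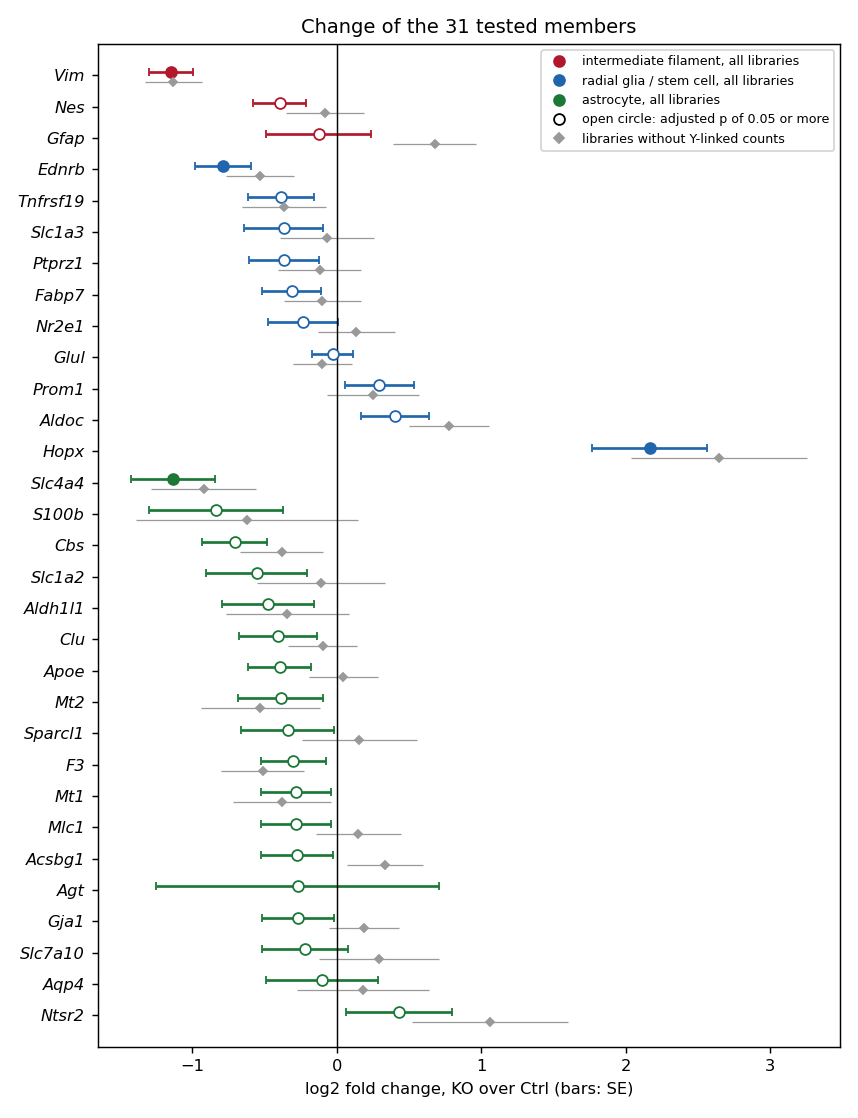
Log2 fold change of each tested member, KO over Ctrl, with bars of 1 SE. Coloured circles use all 11 libraries, and are filled where the adjusted p is under 0.05. Grey diamonds use the 7 libraries without Y-linked counts, and the diamond of Agt (6.37, fitted against Ctrl libraries at 0) lies beyond the axis. Vim stands at -1.15 in all libraries and at -1.13 in the 7, and Hopx is the circle farthest to the right.

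The sum of all members was 2170 to 4353 CPM in KO libraries and 2575 to 5024 CPM in Ctrl libraries, so the groups overlapped. Radial glia and stem cell members summed to 1179 to 2536 CPM in KO and 1331 to 2816 CPM in Ctrl, and astrocyte members to 831 to 1609 CPM in KO and 955 to 1940 CPM in Ctrl. The 3 filament members were the class without overlap, with 135 to 208 CPM in KO and 260 to 403 CPM in Ctrl. Most reads in that sum belong to Vim. In bulk RNA of sorted cells, fewer cells of a type and less RNA per cell cannot be told apart.

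Among the filament genes, Vim fell and the others did not pass the test. Vim (ENSMUSG00000026728, chromosome 2, positions 13573927 to 13582826, plus strand, GRCm38) encodes vimentin, the main filament protein of radial glia and of mesenchymal cells. Its level was 108, 93.6, 84.9, 143 and 99.2 CPM in the KO libraries, against 229, 307, 230, 270, 199 and 184 CPM in the Ctrl libraries. Every KO library lay below every Ctrl library. The log2 fold change was -1.15 ± 0.152 (SE, edgeR adjusted p = 0.000387), with means of 106 ± 22.4 CPM in KO (SD, n = 5) and 237 ± 45.7 CPM in Ctrl (SD, n = 6). In the 7 libraries without Y-linked counts it was -1.13 (adjusted p = 0.0175), and it stayed between -1.26 and -1.07, past the threshold, with each of the 11 libraries left out. Non-overlapping CPM values were found for 704 of the 14104 tested genes (4.99%), and for Vim and Hopx among the members.

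Nestin, the filament protein used to mark neural progenitors, is encoded by Nes (ENSMUSG00000004891, chromosome 3, positions 87971078 to 87980451, plus strand). Nes had 34.1, 42.0, 24.0, 47.8 and 38.9 CPM in KO, against 34.2 to 56.8 CPM in Ctrl (median 52.4). All KO values were under the Ctrl median, but the groups overlapped (log2 fold change -0.40 ± 0.185 SE, adjusted p = 0.289). Gfap (ENSMUSG00000020932, chromosome 11, positions 102887336 to 102900912, minus strand) encodes the glial fibrillary acidic protein of astrocytes and postnatal stem cells. It had 19.8, 24.9, 26.4, 17.1 and 27.0 CPM in KO, and 8.34, 39.1, 28.6, 14.8, 14.6 and 47.2 CPM in Ctrl. The KO libraries lay inside the much wider Ctrl range, and the log2 fold change was -0.13 ± 0.365 SE (adjusted p = 0.907). With the 7 libraries without Y-linked counts the Gfap fold change was 0.68, again not past the threshold (adjusted p = 0.379).

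**Figure D2:**
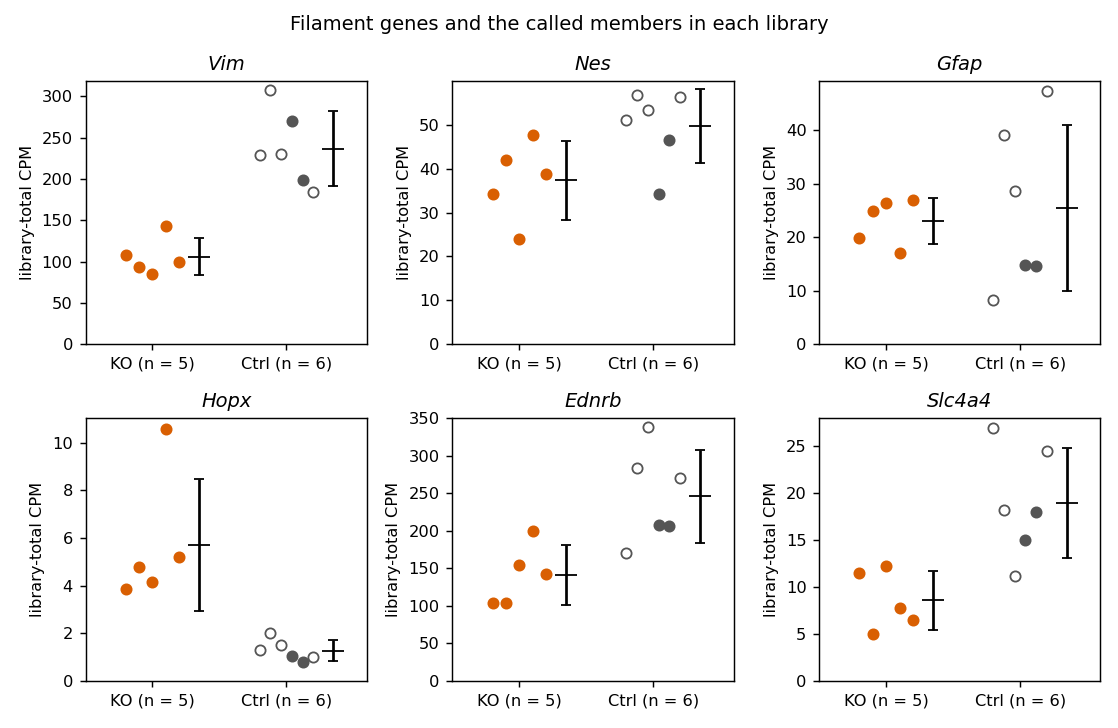
Library-total CPM of the 3 filament genes and of the 3 other members past the threshold, with 1 point for each library and mean ± SD as bars. KO libraries are orange, and Ctrl libraries are grey, filled for the 2 without Y-linked counts. KO and Ctrl points are apart for Vim and Hopx and overlap for Nes, Gfap, Ednrb and Slc4a4.

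A list of 10 other filament genes (neurofilaments, internexin, desmin, synemin and lamins) was measured beside Vim. Of these 8 could be tested and 0 passed the edgeR test, while 1, Lmna, had an unadjusted p under 0.05. Lmna was higher in KO, at 19.1 CPM on average against 12.7 CPM in Ctrl (log2 fold change 0.61, edgeR adjusted p = 0.241). Of the 8 fold changes, 2 were positive and 6 negative. With 4.42% of all genes called, 0 of 8 is near the background and says nothing particular about these genes. Their median log2 fold change was -0.26. Ina, a neuronal filament gene whose exons overlap Nt5c2 on the other strand, had 135 ± 41.1 CPM in KO (SD, n = 5) and 164 ± 35.6 CPM in Ctrl (SD, n = 6). Lmnb1, which encodes a lamin of the nuclear envelope, had 328 ± 40.1 CPM in KO (SD, n = 5) and 363 ± 43.1 CPM in Ctrl (SD, n = 6).

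Ratios within a library show whether members shifted unequally. They use the same counts as the tests of single genes, and the pairs were chosen with earlier results known. A ratio that holds Vim or Hopx is therefore not separate support for the call of that gene. For 6 ratios, the log2 ratio of CPM + 1 was compared between groups with an exact two-sided permutation test over 462 splits, whose smallest p is 0.00216, and 2 ratios passed after adjustment over the 6. The Vim to Nes ratio on the log2 scale averaged 1.49 ± 0.255 in KO (SD, n = 5) and 2.22 ± 0.423 in Ctrl (SD, n = 6). The difference was -0.74 (exact permutation p = 0.0065, adjusted p = 0.0195), so within a library Vim was lower relative to Nes in KO. The adjusted p was 0.0714 without KO 1, KO 2 or KO 5. In the 7 libraries without Y-linked counts the difference was -1.02. There 21 splits allow no p under 0.0476, and a ratio could pass after adjustment only if all 6 reached that value, so those 7 libraries cannot settle the call. For Vim to Gfap the difference was -1.23 (exact permutation p = 0.0303, adjusted p = 0.0606), which missed the threshold.

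The other ratio past the threshold set Hopx against Slc1a3, and it went the opposite way. It averaged -5.48 ± 0.475 in KO (SD, n = 5) and -7.38 ± 0.4934 in Ctrl (SD, n = 6) on the log2 scale. The difference was 1.90, with no overlap between groups (exact permutation p = 0.00216, adjusted p = 0.013). In the 7 libraries without Y-linked counts the difference was 1.91, with the same limit on p. Gfap to Aqp4 differed by 0.17 (exact permutation p = 0.736) and Slc1a2 to Slc1a3 by 0.03 (exact permutation p = 0.944), both within the spread. For the sixth, Gjb6 to Gja1, Gjb6 was at 0 in every Ctrl library, so no fold is given.

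**Figure D3:**
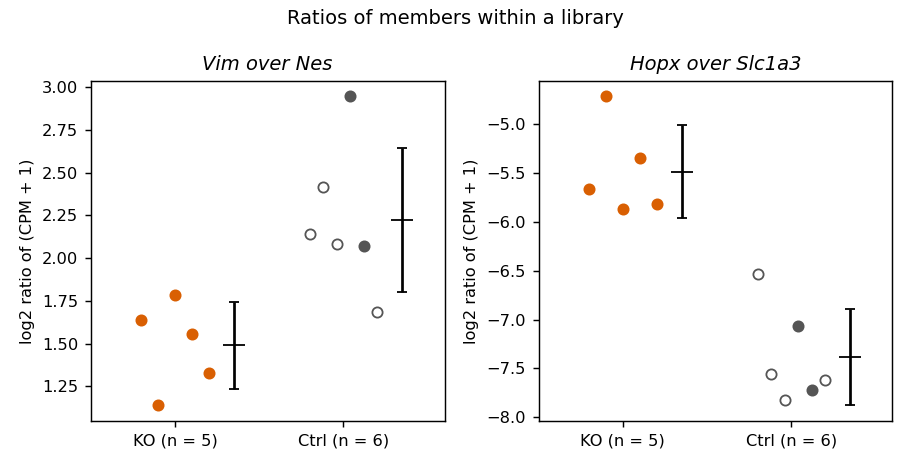
Log2 ratio of CPM + 1 in each library for Vim over Nes and for Hopx over Slc1a3, with mean ± SD. KO libraries are orange, and Ctrl libraries are grey, filled for the 2 without Y-linked counts. All KO points lie above all Ctrl points for Hopx over Slc1a3, and KO 3, the highest KO point for Vim over Nes (1.78), lies above the lowest Ctrl point (1.69).

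Among the 11 radial glia and stem cell members, Hopx rose and Ednrb fell, and 8 of the 10 tested did not pass. Their median log2 fold change was -0.27, and -0.08 in the 7 libraries without Y-linked counts. Over all tested genes 4.42% were called and the median was -0.02. Hopx (ENSMUSG00000059325, chromosome 5, positions 77086988 to 77115121, minus strand) encodes a small homeodomain protein that does not bind DNA and marks outer radial glia in the human cortex. It had 3.85, 4.80, 4.14, 10.6 and 5.19 CPM in the KO libraries, against 1.32, 1.99, 1.5, 1.04, 0.790 and 0.999 CPM in the Ctrl libraries. Every KO library was above every Ctrl library, and KO 4 stood far above the other KO libraries. These are low levels, 340 reads over the KO libraries and 76 over the Ctrl libraries, and the log2 fold change was 2.17 ± 0.397 SE (adjusted p = 0.00458). The call held with each library left out, with fold changes between 1.84 and 2.33. It was lost, at a log2 fold change of 2.65, in the 7 libraries without Y-linked counts (adjusted p = 0.0668).

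Ednrb (ENSMUSG00000022122, chromosome 14, positions 103814625 to 103844402, minus strand) encodes the endothelin receptor B, a receptor of radial glia, astrocytes and neural crest cells. It had 104, 103, 154, 200 and 142 CPM in KO, against 170, 283, 339, 207, 206 and 270 CPM in Ctrl. KO 4 alone lay above the lowest Ctrl library. The log2 fold change was -0.79 ± 0.196 SE (adjusted p = 0.0327). It fell short of the threshold without Ctrl 2, Ctrl 3, Ctrl 6, KO 1, KO 2, KO 3 or KO 5, and it was -0.53 (adjusted p = 0.399) in the 7 libraries without Y-linked counts. Ece1, which encodes the enzyme that makes active endothelin, was also lower, with 36.2 CPM on average in KO and 62.6 CPM in Ctrl (log2 fold change -0.78, adjusted p = 0.0211, and -0.86 with an adjusted p of 0.185 in the 7 libraries). The Ece1 call was also lost without Ctrl 4 or KO 4. Ece1 was the 1 gene past the threshold among 20 tested genes of the same families or pathways as the members. With 4.42% of all genes called, 1 of 20 is near the background. The other endothelin receptor gene, Ednra, had a positive fold change that did not pass (1.38, adjusted p = 0.402). It was low, with 2.92 CPM on average in KO and 1.14 CPM in Ctrl. The ligand genes Edn1 and Edn3 were at 0 in 8 or more of the 11 libraries.

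Promoter sequence is shown for the members past the threshold where a RefSeq window (GRCm38.p6, 250 bases before a transcription start) held the Zeb2 core motif and no annotated exon. Capitals mark CACCT, or AGGTG where the motif is on the other strand.
Hopx, chr5:77115124-77115373, minus strand: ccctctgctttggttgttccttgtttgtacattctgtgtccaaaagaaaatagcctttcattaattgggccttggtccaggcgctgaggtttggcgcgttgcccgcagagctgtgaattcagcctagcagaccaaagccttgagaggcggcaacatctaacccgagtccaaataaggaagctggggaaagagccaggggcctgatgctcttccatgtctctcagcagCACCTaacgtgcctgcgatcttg
Ednrb, chr14:103843702-103843951, minus strand: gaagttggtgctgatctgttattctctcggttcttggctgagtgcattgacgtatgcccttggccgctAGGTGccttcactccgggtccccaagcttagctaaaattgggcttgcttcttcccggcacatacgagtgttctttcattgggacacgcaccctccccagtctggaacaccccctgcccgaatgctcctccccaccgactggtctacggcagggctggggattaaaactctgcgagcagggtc
Slc4a4, chr5:89027716-89027965, plus strand: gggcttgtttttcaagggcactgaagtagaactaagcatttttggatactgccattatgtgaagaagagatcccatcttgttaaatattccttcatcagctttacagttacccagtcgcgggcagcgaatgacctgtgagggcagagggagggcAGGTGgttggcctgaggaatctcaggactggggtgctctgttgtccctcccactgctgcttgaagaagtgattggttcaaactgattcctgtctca

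The match begins at position -23 from the start in the Hopx window, at -182 in the Ednrb window and at -96 in the Slc4a4 window, where it is part of an E-box that begins at -97. The Hopx window precedes the outermost annotated start, and the windows of Ednrb and Slc4a4 precede starts inside the annotated gene. Both strands were searched, and every E-box contains the core, so the motifs overlap. Among members, 30 had 37 such windows, of which 21 held CACCT and 7 held CACCTG. Over all 32851 promoter windows of the same length, 46.0% held CACCT and 17.2% held CACCTG. A match of these letters is a description and not a binding site, and the Vim window, which is annotated exon throughout, held none.

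Slc1a3, Fabp7 and Ptprz1, widely used markers of radial glia, did not pass the test. Slc1a3 encodes the glutamate transporter GLAST of radial glia, and had 245, 151, 299, 470 and 349 CPM in KO, against 213 to 566 CPM in Ctrl (median 384). Fabp7, the brain lipid binding protein of radial glia, had 267, 302, 258, 552 and 262 CPM in KO, against 312 to 567 CPM in Ctrl (median 368). Ptprz1, a receptor phosphatase of radial glia and oligodendrocyte precursors, had 457, 279, 506, 645 and 385 CPM in KO, against 339 to 890 CPM in Ctrl (median 604). KO and Ctrl ranges overlapped for all 3 genes, and their log2 fold changes were -0.37 for Slc1a3, -0.31 for Fabp7 and -0.37 for Ptprz1, with adjusted p-values of 0.538, 0.477 and 0.488. In the 7 libraries without Y-linked counts these 3 fold changes were -0.07, -0.10 and -0.12.

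Aldoc and Prom1 were among the 4 members with a positive fold change. Aldoc, an aldolase of astrocytes and radial glia, had 235, 183, 335, 413 and 347 CPM in KO, against 136 to 314 CPM in Ctrl (median 238). Prom1, which encodes the membrane protein prominin of ventricular stem cells, had 50.6, 65.0, 52.8, 109 and 95.7 CPM in KO, against 35.2 to 78.0 CPM in Ctrl (median 63.9). For both the highest libraries were KO libraries, yet neither passed (log2 fold changes 0.40 and 0.30, adjusted p = 0.407 and 0.575). Prom1 exons overlap Gm16401 on the other strand, at a mean of 2.39 CPM.

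Nr2e1, the nuclear receptor TLX of adult neural stem cells, had 29.1, 19.8, 23.9, 28.6 and 26.0 CPM in KO, against 17.6 to 53.7 CPM in Ctrl (median 29.8). Tnfrsf19, the receptor TROY, had 41.5, 32.1, 41.2, 58.9 and 67.9 CPM in KO, against 35.7 to 86.5 CPM in Ctrl (median 67.9). The groups overlapped for Nr2e1 (log2 fold change -0.24, adjusted p = 0.69) and for Tnfrsf19 (-0.39, adjusted p = 0.421). Glul, the glutamine synthetase that turns glutamate into glutamine, varied least between libraries of all tested members, with 35.1 to 49.2 CPM in KO and 38.7 to 53.5 CPM in Ctrl (log2 fold change -0.03 ± 0.141 SE, 95% interval -0.31 to 0.25). Thbs4, a secreted thrombospondin of V-SVZ astrocytes, had 46 reads over the KO libraries, most in KO 2 at 2.94 CPM, and 21 reads over the Ctrl libraries, most in Ctrl 3 at 1.6 CPM. It was at 0 in KO 4, KO 5 and 4 Ctrl libraries, where a count of 0 allows up to 0.229 to 0.439 CPM by counting error alone.

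Of the 18 astrocyte members tested, Slc4a4 fell and the other 17 did not pass. With 4.42% of all genes called, 1 of 18 is near the background. Fold changes were negative in 17 of 18, with a median of -0.32. Over all tested genes 7369 of 14104 were negative, with a median of -0.02. In the 7 libraries without Y-linked counts 9 astrocyte members were positive and 9 negative, with a median of -0.03. Slc4a4 (ENSMUSG00000060961, chromosome 5, positions 88886818 to 89239653, plus strand) encodes the sodium bicarbonate cotransporter of astrocytes. It had 11.5, 4.99, 12.2, 7.80 and 6.45 CPM in KO, against 26.9, 18.2, 11.2, 15.0, 18.0 and 24.4 CPM in Ctrl. Ctrl 3 lay within the KO range, and the other 5 Ctrl libraries lay above all KO libraries. The log2 fold change was -1.13 ± 0.289 SE (adjusted p = 0.0364). The call was lost without Ctrl 1, Ctrl 2, Ctrl 6, KO 2, KO 4 or KO 5, and in the 7 libraries without Y-linked counts the fold change was -0.92 (adjusted p = 0.336).

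Genes of glutamate, glycine and sulphur amino acid handling gave no call. Slc1a2, the astrocyte glutamate transporter GLT-1, had 43.6, 23.0, 32.1, 34.0 and 27.8 CPM in KO, against 12.2 to 76.1 CPM in Ctrl (median 49.5). The Ctrl range enclosed all KO libraries (log2 fold change -0.56 ± 0.348 SE, adjusted p = 0.453). Cbs, the cystathionine beta-synthase of astrocytes, came closest to the threshold, with 18.4, 33.2, 27.0, 31.4 and 17.3 CPM in KO, against 31.6 to 59.6 CPM in Ctrl (median 39.5). Its log2 fold change was -0.71 ± 0.224 SE (edgeR adjusted p = 0.0973), and with DESeq2 it passed (adjusted p = 0.0319). In the 7 libraries without Y-linked counts the Cbs fold change was -0.38 (edgeR adjusted p = 0.67). Aldh1l1, a folate enzyme used as a marker of all astrocytes, had 19.3, 32.8, 43.8, 73.9 and 69.8 CPM in KO, against 32.2 to 94.8 CPM in Ctrl (median 69.4, log2 fold change -0.48, adjusted p = 0.489). Slc7a10, a small neutral amino acid transporter, had 5.65 to 17.6 CPM in KO and 10.4 to 21.8 CPM in Ctrl, and its exons overlap Lrp3 on the other strand, at a mean of 28.1 CPM.

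Genes of lipid carriage and lipid metabolism overlapped between groups. Apoe, the main lipoprotein of astrocytes, had 327, 337, 335, 600 and 486 CPM in KO, against 379 to 816 CPM in Ctrl (median 531). Clu, the secreted chaperone clusterin, had 99.4, 93.0, 119, 157 and 166 CPM in KO, against 69.4 to 262 CPM in Ctrl (median 164). Acsbg1, an acyl-CoA synthetase, had 70.0, 69.2, 85.3, 131 and 109 CPM in KO, against 67.5 to 169 CPM in Ctrl (median 113). In all 3 genes KO 4 and KO 5 were the highest KO libraries, and the log2 fold changes were -0.40 for Apoe, -0.41 for Clu and -0.27 for Acsbg1, with adjusted p-values of 0.38, 0.484 and 0.635. The lipoprotein receptor Lrp1 and the lipid exporter Abca1 were not past the threshold either.

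Membrane and coupling genes showed the same overlap. Aqp4, the water channel of astrocyte endfeet, had 11.9, 5.78, 23.0, 21.9 and 17.1 CPM in KO, against 8.93 to 36.1 CPM in Ctrl (median 14.3). Mlc1, a membrane protein of astrocyte junctions, had 106, 70.0, 146, 178 and 151 CPM in KO, against 110 to 227 CPM in Ctrl (median 154). Gja1, which encodes the gap junction protein connexin 43, had 59.6, 59.4, 63.2, 88.6 and 55.4 CPM in KO, against 42.7 to 121 CPM in Ctrl (median 81.9). None passed, with log2 fold changes of -0.10 for Aqp4, -0.28 for Mlc1 and -0.27 for Gja1. Gjb6, which encodes connexin 30 of more mature astrocytes, had 17 reads in all, in KO 1 at 0.549 CPM and in KO 4 at 0.765 CPM, and 0 in the other 9 libraries.

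The secreted, receptor and stress genes were likewise not past the threshold. Sparcl1, a secreted synapse-promoting protein, had 94.6, 57.2, 86.3, 197 and 57.9 CPM in KO, against 72.7 to 210 CPM in Ctrl (median 107). Ntsr2, a neurotensin receptor of astrocytes, had 15.0, 5.19, 6.75, 20.6 and 17.5 CPM in KO, against 5.65 to 15.3 CPM in Ctrl (median 9.14). Ntsr2 was the astrocyte member with a positive fold change (0.43 ± 0.366 SE, adjusted p = 0.602), and its KO values fell into a low and a high group. The metallothionein genes Mt1 and Mt2 had 9.40 to 23.3 and 3.33 to 8.95 CPM in KO, against 13.4 to 23.5 and 5.45 to 11.3 CPM in Ctrl. F3, the coagulation tissue factor, had 9.03 to 14.2 CPM in KO and 9.51 to 17.8 CPM in Ctrl. S100b, a calcium-binding protein of mature astrocytes, had 0.871 to 1.97 CPM in KO and 1.04 to 3.81 CPM in Ctrl (log2 fold change -0.84 ± 0.467 SE, adjusted p = 0.386). Agt, the angiotensin precursor, had 0.196 to 1.73 CPM in KO and 0 to 3.63 CPM in Ctrl, with 57 reads over the KO libraries and 72 over the Ctrl libraries.

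**Figure D4:**
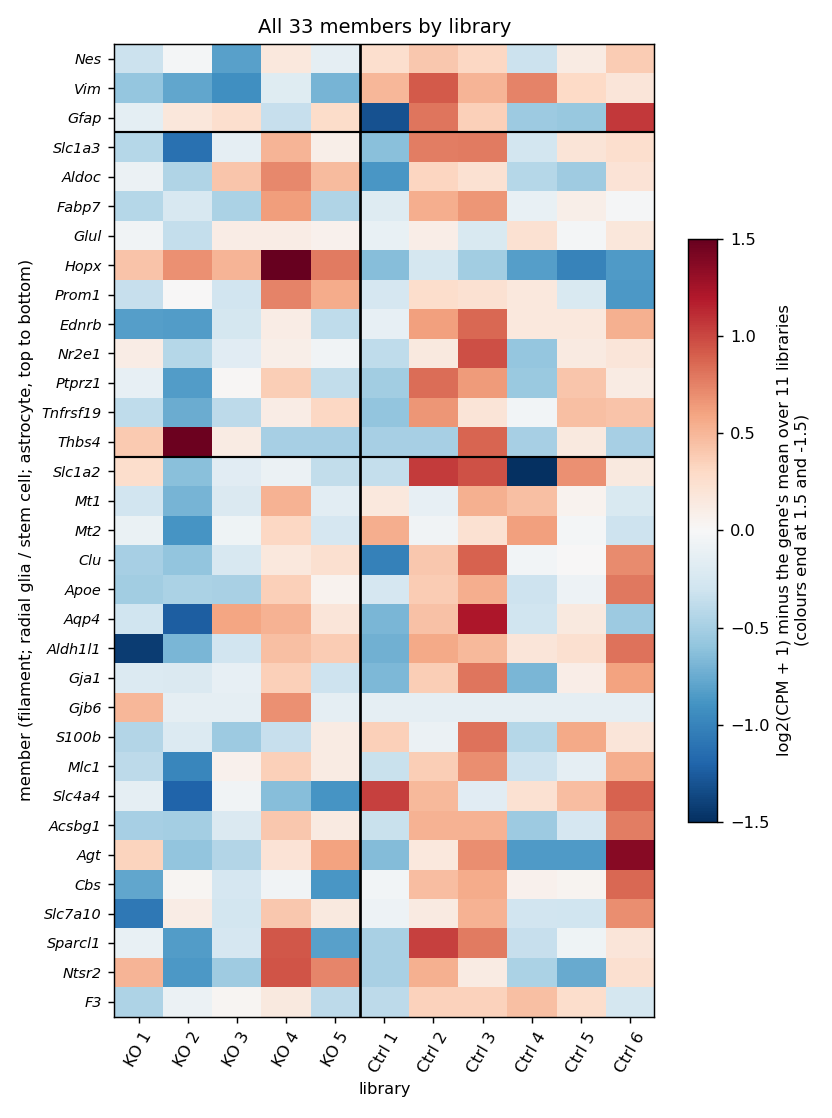
All 33 members (rows, by class) in the 11 libraries (columns), as log2(CPM + 1) minus the mean of that gene over the libraries, with colours ending at 1.5 and -1.5. Vim is blue in the KO columns and red in the Ctrl columns, Hopx the reverse, and most other members are red in Ctrl 2, Ctrl 3 and KO 4 and blue in KO 2.

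To compare levels between genes, counts were divided by exon length and scaled to TPM, which adds up to the same total in every library. Fabp7 led the members, with 878 ± 344 TPM in KO (SD, n = 5) and 1086 ± 302 TPM in Ctrl (SD, n = 6). Apoe followed at 650 ± 185 TPM in KO (SD, n = 5) and 857 ± 283 TPM in Ctrl (SD, n = 6), and Aldoc at 310 ± 95.5 TPM in KO (SD, n = 5) and 235 ± 80.5 TPM in Ctrl (SD, n = 6). In each group the means of Fabp7 and Apoe differed by less than the SD of Fabp7. Vim ranked seventh in Ctrl, with 74.5 ± 16.3 TPM in KO (SD, n = 5) and 164 ± 33.3 TPM in Ctrl (SD, n = 6), beside Clu at 123 TPM in KO and 165 TPM in Ctrl. Nes and Gfap were lower, at 19.4 and 18.2 TPM in KO and 25.5 and 19.99 TPM in Ctrl. Some astrocyte members were low in the order. Aqp4 had 8.58 TPM in KO and 9.21 TPM in Ctrl, S100b had 2.84 TPM in KO and 5.19 TPM in Ctrl, and Gjb6 had 0.334 TPM in KO and 0 TPM in Ctrl. Others, such as Apoe, Mlc1, Clu and Sparcl1, were among the first 10 in Ctrl, and the radial glia and stem cell members Hopx and Thbs4 were among the last 4. Hopx had 12.6 ± 6.14 TPM in KO (SD, n = 5) and 2.76 ± 0.979 TPM in Ctrl (SD, n = 6).

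Most members moved together from library to library within a group. With the group means removed from log2(CPM + 1), 398 of the 465 pairs of tested members had a positive Pearson's r, with a median of 0.43. The pairs share their libraries, and the mean of the members also followed total counts (r = 0.69 over 11 libraries), the neuroblast markers (r = -0.61) and the oligodendrocyte precursor markers (r = 0.50). The mean log2(CPM + 1) of the 33 members was 4.90, 4.73, 4.99, 5.46 and 5.11 in KO and 4.86, 5.54, 5.65, 4.94, 5.15 and 5.42 in Ctrl, so KO 4 was the highest KO library and Ctrl 2, Ctrl 3 and Ctrl 6 were the highest Ctrl libraries. Pairs of radial glia and stem cell members had a median r of 0.58 over 45 pairs, and pairs of astrocyte members 0.37 over 153. Between these classes the median was 0.48 over 180 pairs. The 3 filament pairs had a median r of 0.22, and the median r of filament genes was 0.29 with radial glia members and 0.32 with astrocyte members.

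A core of 7 members had a median r over 0.6 with the others: Slc1a3, Acsbg1, Ednrb, Aldoc, Apoe, Gja1 and Mlc1. Acsbg1 and Apoe were the closest pair (r = 0.97). Another 9 members had a median r under 0.3, among them Vim (0.23), Nes (0.29), Glul (0.20) and Slc4a4 (-0.18). Vim was closest to Hopx (r = 0.76 within groups), although the difference between KO and Ctrl had the opposite sign in these genes. Members were compared with the oligodendrocyte precursor, cycling, neuroblast and transit amplifying marker lists, and not with the other lists. Of these, Vim lay nearest to the cycling markers (r = 0.70), followed by the transit amplifying markers (r = 0.61). Ednrb had r = 0.25 with the cycling and 0.09 with the transit amplifying markers.

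Correlations of 10 pairs were tested over the 11 libraries with 100000 permutations within groups and adjustment over the 10 pairs. The pairs were chosen with earlier results of these data known, so the p-values are not those of pairs set in advance. Slc1a3 and Aldoc passed (Pearson's r = 0.92, adjusted permutation p = 0.002, Spearman's rho = 0.92, adjusted p = 0.0066), and r was 0.83 without the 2 libraries farthest from the median of Slc1a3. Apoe and Clu passed (r = 0.83, adjusted permutation p = 0.0191, rho = 0.85, adjusted p = 0.0178, r = 0.84 without the 2 libraries farthest in Apoe), as did Mt1 and Mt2 (r = 0.84, adjusted permutation p = 0.021, rho = 0.84, adjusted p = 0.0178, r = 0.70 without the 2 farthest in Mt1). Mt1 and Mt2 are neighbouring paralogs that could share reads. The 7 other pairs did not pass. Vim had r = 0.28 with Nes (adjusted permutation p = 0.54), -0.17 with Gfap (0.64) and 0.36 with Slc1a3 (0.498), and Hopx had r = 0.56 with Slc1a3 (0.206). Without the 2 libraries farthest in Vim, the r with Nes was -0.22, so its sign rested on those libraries.

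**Figure D5:**
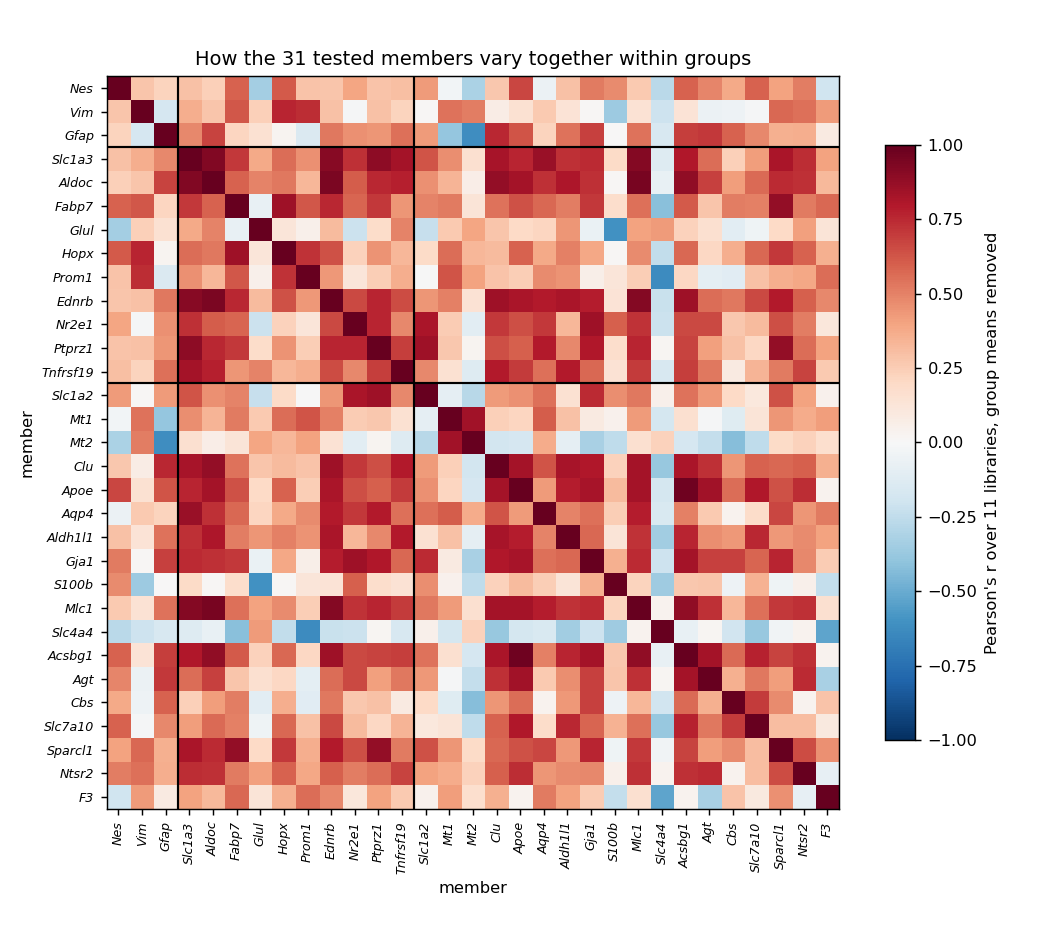
Pearson's r between each pair of the 31 tested members over 11 libraries, group means removed from log2(CPM + 1), with lines between filament, radial glia and stem cell, and astrocyte members. The cells where Slc1a3, Aldoc, Ednrb, Mlc1, Apoe and Acsbg1 meet are dark red, though these members are not side by side. Slc4a4, Mt2, S100b and Vim have paler rows.

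Other glial genes gave the members their setting. Of 41 tested genes of a wider astroglial list, Nfib and Nfix were higher, Gpr37l1 was lower and 38 did not pass. The list had a median log2 fold change of -0.26, beside -0.02 over all tested genes, of which 4.42% were called. Without the libraries that hold Y-linked counts the list median was 0.08, with 23 fold changes positive and 18 negative. Nfib, a nuclear factor that promotes gliogenesis, had 983, 717, 1189, 960 and 870 CPM in KO, against 234 to 552 CPM in Ctrl, with no overlap (log2 fold change 1.204, adjusted p = 0.00109, and 1.28 with an adjusted p of 0.00592 in the 7 libraries without Y-linked counts). Its relative Nfix averaged 521 ± 49.0 CPM in KO (SD, n = 5) and 367 ± 49.5 CPM in Ctrl (SD, n = 6, log2 fold change 0.52, adjusted p = 0.01), and its fold change in the 7 libraries was as large (0.53, adjusted p = 0.184). Gpr37l1, an orphan receptor of astrocytes and oligodendrocyte precursors, had 18.9, 19.5, 19.4, 16.5 and 16.8 CPM in KO, against 41.3 to 119 CPM in Ctrl. Its log2 fold change was -1.76 (adjusted p = 0.00122), and it was smaller, at -1.16, in the 7 libraries (adjusted p = 0.0205). These 3 calls held with each library left out. Sox9, which specifies glia, and Hes5, a Notch target of radial glia, did not pass, with 121 and 24.6 CPM on average in KO and 154 and 23.7 CPM in Ctrl.

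Markers of other cells moved with the groups in part, and their share in the member results was not tested. Oligodendrocyte precursor markers summed to 590 to 983 CPM in KO and 827 to 2377 CPM in Ctrl, with the highest sum in Ctrl 6. All 7 of these markers had negative fold changes (median -1.25, and -0.32 in the 7 libraries without Y-linked counts), 5 had an unadjusted p under 0.05, and Gpr17 fell (log2 fold change -1.44, adjusted p = 0.0295). Cspg4 (-1.53, adjusted p = 0.0587) and Sox10 (-1.25, adjusted p = 0.0593) came close to the threshold. Cycling markers summed to 426 to 619 CPM in KO and 559 to 871 CPM in Ctrl, and Cdk1 (-0.74, adjusted p = 0.0241) and Ccnb1 (-0.83, adjusted p = 0.0309) fell as 2 of 8, with a list median of -0.50. Of the transit amplifying markers Mfng fell (-1.21, adjusted p = 0.000915, 1 of 7), and of the neuroblast markers Cd24a fell (-0.36, adjusted p = 0.0493, 1 of 9). Over all genes 4.42% were called and 1.74% were called lower, so 1 call in a list of 7 or 9 says little about that list. Among Gpr17, Cdk1, Ccnb1, Mfng and Cd24a, Mfng also passed in the 7 libraries without Y-linked counts (adjusted p = 0.0231) and with each library left out. The other calls were lost in the 7 libraries, where the log2 fold changes were -0.75 for Gpr17, -0.68 for Cdk1, -0.59 for Ccnb1 and -0.43 for Cd24a. For Gpr17 and Cdk1 they were lost with 5, for Ccnb1 with 7 and for Cd24a with 9 of the 11 libraries left out in turn. The markers with the most reads did not pass. Olig1 of the precursor list had 452 CPM on average in KO and 607 CPM in Ctrl, and Mcm2 of the cycling list 243 CPM in KO and 275 CPM in Ctrl. Dlx1, a transit amplifying marker, had 799.8 CPM in KO and 808 CPM in Ctrl, and Tubb3, a neuronal tubulin gene, 3199.7 CPM in KO and 3832.5 CPM in Ctrl. Vimentin is also made by mural cells, fibroblasts and endothelium. Mural and fibroblast markers, led by Pdgfrb, summed to 19.0 to 23.9 CPM in KO and 11.9 to 44.6 CPM in Ctrl. Endothelial markers, of which Tek was at 0 in every library, summed to 26.5 to 84.7 CPM in KO and 21.5 to 73.4 CPM in Ctrl. Slco1c1 alone averaged 42.7 CPM in KO and 40.9 CPM in Ctrl, while every other endothelial marker averaged 2.48 CPM or less in each group. The endothelial sum thus mostly follows 1 gene and does not by itself measure endothelial cells. Microglial markers, led by Cx3cr1, summed to 2.22 to 9.37 CPM in KO and 0.501 to 10.99 CPM in Ctrl, and ependymal markers, led by Foxj1, to 6.54 to 12.98 CPM in KO and 5.81 to 20.3 CPM in Ctrl. Choroid plexus markers reached 203 CPM in KO 5, from Ttr at 193 CPM, against 2.78 to 12.4 CPM in Ctrl. Without KO 5, Vim and Hopx still passed. Ednrb (-0.81, adjusted p = 0.0525) and Slc4a4 (-1.07, adjusted p = 0.075) did not, with fold changes close to those of all libraries, and both calls were also lost without other libraries.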

How the data were processed

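The authors deposited unnormalised counts of reads for each Ensembl gene, with 1 column per library. The genome was mm10 (GRCm38), the aligner TopHat2 2.0.13 and the counter featureCounts 1.4.6, per the submitters' processing notes. RNA was isolated with Trizol LS and RNeasy Micro columns from papain-dissociated tissue and made into TruSeq libraries, per the labels' protocols. The sources used here do not give the strand setting, the annotation release or the handling of multi-mapping reads. Genes that overlap on opposite strands, and paralogs, may therefore share reads.

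CPM by library total was computed for display. Symbols, coordinates and exon lengths came from GENCODE M21 (37607 of 39179 identifiers matched, at least 99.7% of the counts of each library). All genes were tested in edgeR 4.0.16 (R 4.3.3) with filterByExpr, TMM scaling, a robust quasi-likelihood fit and Benjamini-Hochberg adjustment over 14104 genes at 0.05. Every adjusted p of a gene is from this test unless DESeq2 or another set of libraries or design is named. Those come from a fit of their own, over 14897 genes for the 7 libraries without Y-linked counts. SE and 95% intervals were derived from the fit. Ratios and correlations used a pseudocount of 1 CPM, with Python 3.11.15 and scipy 1.17.1. No pair of replicates was as close as sampling noise allows (lowest chi-square divided by its degrees of freedom 13.7). Floors for a count of 0 are 3 counts and cover counting error only.

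The members, lists, pairs and tests were chosen with earlier results of these data known. Genes named in the text are all members, Zeb2, genes of the context lists past the threshold (up to 6 a list) and, for each marker list, those past the threshold (up to 3) and the gene with the highest mean. Ina, Lmna, Lmnb1, Ednra, Edn1, Edn3, Lrp1, Abca1, Sox9, Hes5, Cspg4, Sox10 and Tek were added after their values were seen. Alternatives were RLE and library-total scaling, other count filters, DESeq2 1.42.0, voom in limma 3.58.1, leaving out libraries, a replicate block, a Y-linked covariate, libraries without Y-linked counts, a count table without Gm42418, a pseudocount of 0.5 and TMM-scaled CPM.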

Additional observations from a re-analysis of the deposited data

Results flagged for a closer look

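In 61 sets of a member's CPM in KO or in Ctrl, 5 held a library that stood apart from the rest of its group by Dixon's 95% criterion, which chance alone meets in about 1 in 20 groups. KO 4 was the high library in 4 of them. Fabp7 had 552.3 CPM in KO 4, against 258 to 302 CPM in the other KO libraries. Hopx had 10.56 CPM in KO 4, against 3.85 to 5.19 CPM in the others, and its call held without KO 4. Gja1 had 88.6 CPM in KO 4, against 55.4 to 63.2 CPM in the others, and Sparcl1 had 197 CPM in KO 4, against 57.2 to 94.6 CPM in the others. Nr2e1 had 53.7 CPM in Ctrl 3, against 17.6 to 30.8 CPM in the other Ctrl libraries. KO 4 was also the library with the most counts of all 11 (13073505).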

How the results depend on the processing

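Over 22 alternative settings the members gave 681 values, of which 623 kept direction and side of the threshold, 24 lost the call, 1 (Cbs with DESeq2) gained it and 33, in 11 members, changed sign. Of 88 values for Vim, Hopx, Ednrb and Slc4a4, 0 changed sign, and Vim passed in every setting run. The members past the threshold were 1 higher and 3 lower. They were 0 higher and 1 lower with the replicate block, in the libraries without Y-linked counts and with the Y-linked covariate, and 1 lower without Ctrl 6 and KO 5 together. With each library left out 1 was higher and 1 to 3 were lower. Over all genes, DESeq2 called 613 higher and 495 lower, the libraries without Y-linked counts 150 and 68, and the Y-linked covariate 120 and 66. The replicate block called 141 lower, and leaving out each library 149 to 251 lower. Of the ratios, 1 to 3 passed with each library left out. In the libraries without Y-linked counts 0 passed, but with a smallest p of 0.0476 nearly no outcome could pass there, and the differences were -1.02 for Vim to Nes and 1.91 for Hopx to Slc1a3.

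Sign changes came mainly with the Y-linked counts, in members that never passed. Log2 fold changes in the libraries without Y-linked counts, and with the covariate, were 0.68 and 0.63 for Gfap, 0.14 and 0.15 for Nr2e1, 0.0440 and 0.00502 for Apoe, 0.18 and 0.26 for Aqp4, 0.19 and 0.18 for Gja1, 0.15 and 0.13 for Mlc1, 0.33 and 0.30 for Acsbg1, 0.29 and 0.24 for Slc7a10, 0.16 and 0.21 for Sparcl1, and 6.37 and 4.33 for Agt, which was at 0 in Ctrl 4 and Ctrl 5. Agt was 0.83 with limma-voom, and Gfap 0.0727 without Ctrl 6 and KO 5. With each library left out, Gfap was -0.30 to 0.16, Glul -0.0801 to 0.0459, Aqp4 -0.27 to 0.24 and Agt -0.66 to 0.59. The ratio of Gfap to Aqp4 was -0.16 to 0.50 and that of Slc1a2 to Slc1a3 -0.21 to 0.19. The r of Vim and Gfap was -0.51 to 0.12, of Ednrb and Vim -0.0535 to 0.42, and of Gfap and Aqp4 -0.0210 to 0.50. The r of Mt1 and Mt2 missed the threshold without Ctrl 4 (0.83) or Ctrl 6 (0.81). Beyond the construction of each alternative, the cause was not tested.

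KO and Ctrl libraries share replicate numbers, but same-numbered libraries did not deviate together (r from -0.18 to 0.03 over 5 pairs). Of 5 KO libraries, 0 correlated best with their own number. The highest r between a KO and a Ctrl library was 0.21, for KO 5 and Ctrl 6. Such correlations cannot exclude shared litters or batches, so it is not known whether libraries are paired, by number or otherwise. With the replicate block, Vim passed (adjusted p = 0.0013), Hopx was 2.06 (adjusted p = 0.0601), Ednrb -0.75 (0.0584) and Slc4a4 -1.06 (0.105), close to the values without the block, and the block gave Gfap 0.32, Glul 0.00584 and Agt 1.24.

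Low counts limit Hopx, S100b, Agt, Thbs4 and Gjb6, and changes under the spread between 5 and 6 libraries could not be detected.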
